A study of Caenorhabditis elegans with 2 samples.

Results

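The nuclear genes of the mitochondrial respiratory chain were examined for regions bound in chromatin immunoprecipitation followed by sequencing (ChIP-seq) of ZTF-3, a C. elegans zinc finger protein. Members were the protein-coding genes on nuclear chromosomes with names starting nuo-, nduf-, sdh, ucr-, cox- or atp-, plus gas-1, mev-1, isp-1, cyc-1 and cyc-2.1. The rule uses gene names and gave 46 of 19973 genes, but this group was chosen with earlier results of these data known. The only group was strain OP614, with the allele unc-119(tm4063) and the insertion wgIs614, a transgene that makes ZTF-3 with a C-terminal tag of TY1, EGFP and 3xFLAG and carries the rescue marker unc-119(+). Whole young adults aged 58 h, males and females pooled, were grown from bleached embryos arrested as starved L1 larvae, and chromatin was sonicated and precipitated with an antibody against GFP, per the sample descriptions. The group has 2 samples, biological replicates 4 and 5. No untagged strain or second condition was analysed here, so no test between conditions could be made. Because whole animals were used, a region bound in few cells and one bound weakly in many cannot be told apart.

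The respiratory chain sits in the inner mitochondrial membrane. Complexes I and II pass electrons from NADH and succinate to ubiquinone, complex III passes them to cytochrome c, and complex IV (cytochrome c oxidase) passes them to oxygen. Complex V, the ATP synthase, uses the resulting proton gradient to make ATP. Complexes I, III, IV and V mix subunits encoded in the nucleus with subunits encoded in mitochondrial DNA, whereas complex II is encoded wholly in the nucleus. In C. elegans, gas-1, mev-1 and isp-1 are known for mutants with altered lifespan or sensitivity to oxidative stress.

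Regions were deposited as 1 list per replicate and 1 list for both replicates pooled, each with 30000 entries that mix peaks and background. A thresholded list of 534 regions, labelled optimal, had passed a filter on the irreproducible discovery rate, which scores the repeatability of ranks between lists. At their summits, 7 of the 534 had no region in replicate 5, so a thresholded call need not be repeated in both replicates. These 534 were the 534 strongest pooled regions by the deposited signal, the peak caller's enrichment score, which in the pooled list had a median of 28.0 and in the thresholded list a lowest value of 74.7. The signal and the −log10 q are the authors' values. Signal is on another scale in each list, with a median of 22.6 in replicate 4 and 9.86 in replicate 5, so the replicates are compared by rank, where 1 is the strongest. The lists hold no read counts, so the depth behind each value is unknown. A region was assigned to a gene when its summit lay in the promoter window, which spans 1000 bp upstream to 200 bp downstream of an annotated start site. No list held a region on mitochondrial DNA.

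A thresholded summit stood in the promoter window of 6 of the 46 genes: cox-5A, cox-5B, cox-6A and cox-6B of complex IV, atp-1 of complex V and nduf-2.2 of complex I. These are 13.0% of the members (exact binomial 95% interval 4.94 to 26.3%, over genes, counting error only), against 1.55% of all nuclear protein-coding genes. Any region of the pooled list was found at 28 of the 46 genes (60.9%, interval 45.4 to 74.9%), against 35.5% of all nuclear protein-coding genes. Of those 28 genes, 6 were thresholded (21.4%, interval 8.30 to 41.0%), against 4.35% of all genes with a pooled promoter summit. The count rests in part on replicate 4: with the 534 strongest regions of replicate 5 alone, placed by their own summits, only cox-5A and cox-5B were called, 2 genes, against a background of 1.42%. The nduf-2.2 region was among those 534 too, but its summit in replicate 5 lay 1019 bp upstream of the gene, just outside the window. The shares describe a named list of genes, and no test was made over it.

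The 28 genes with a region had a median pooled signal of 41.3, against 30.1 for all genes with a region, and a median pooled rank of 4170, against 12149. Their strongest promoter signals ran from 23.2 at nduf-6 to 224 at cox-5A, and 20 of the 28 lay above the median of the list, 28.0. The share of all genes above it was not counted, but their median of 30.1 also lay above it. The 7 structural subunits of complex IV with cox- names held 4 of the 6 thresholded genes, or 57.1% of those subunits. The other 39 members held 2, or 5.13%, against 1.55% of all nuclear protein-coding genes. Of these 4 regions, that of cox-6A covers a small nuclear RNA gene and that of cox-6B lies in the windows of other genes. Complex IV subunits under other names gave 1 thresholded gene of 6.

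**Figure D1:**
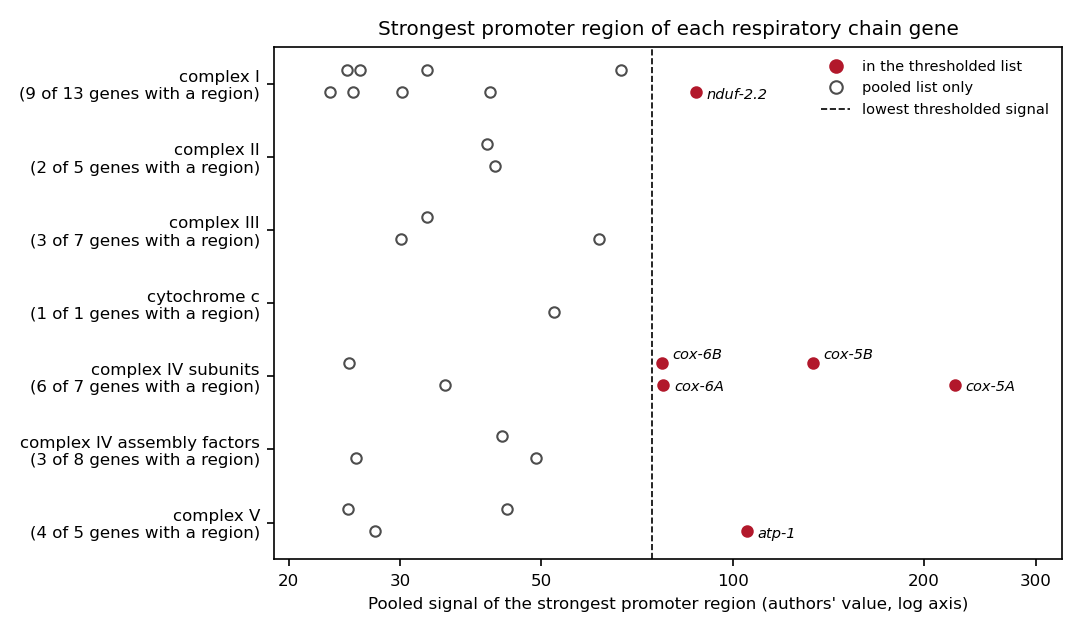
Each point is 1 gene, placed by the pooled signal of its strongest promoter region (log axis, the authors' value) and grouped by complex; filled points are in the thresholded list and the dashed line marks its lowest signal. The highest points are cox-5A at 224 and cox-5B at 134, followed by atp-1 at 105 and nduf-2.2 at 87.5, while complexes II and III have no point above the line.

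In complex I, which takes electrons from NADH, 9 of 13 genes had a pooled summit, against 35.5% of all nuclear protein-coding genes. Of the 13, 1 was thresholded, against 1.55%, and a single call says little about the complex. That gene, nduf-2.2 (WBGene00006463, chrIII:6465222-6467206, plus strand), encodes a form of iron-sulfur protein 2, a core subunit, and is a paralog of gas-1. Its region at chrIII:6464109-6464552 had a pooled signal of 87.5, pooled rank 320 and −log10 q of 1.96. It ranked 275 in replicate 4, with signal 71.1, and 164 in replicate 5, with signal 34.5. Both replicates thus placed it well inside their strongest 534 regions. The summit lay outside protein-coding genes, 891 bp upstream of nduf-2.2 but only 552 bp upstream of dlc-1, a dynein light chain gene on the opposite strand, so the region cannot be given to nduf-2.2 alone. The summit also lay inside a non-coding RNA gene, T26A5.10, which spans -935 to -655 bp from the nduf-2.2 start on the same strand. Another thresholded region stood farther upstream, beyond the window. The paralog gas-1, which encodes the same subunit, had no region of the pooled list in its window.

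The complex I gene next below the threshold was nduf-9, encoding the alpha subcomplex subunit 9 (chrIII:3241717-3248575, minus strand). Its region at chrIII:3248947-3249390 had signal 66.7 and pooled rank 736, and ranked 936 in replicate 4 and 1600 in replicate 5. The summit lay 594 bp upstream of nduf-9 and nearer, at 323 bp, to the start of Y53G8AL.4. The microRNA gene mir-4936 also lay within 500 bp. The other 7 complex I genes with a region were nuo-2, nuo-4, nuo-5, nduf-5, nduf-6, nduf-7 and nduf-11, with signals of 23.2 to 41.5 and ranks of 4047 to 23210. They include nuo-5 and nduf-7, whose products hold iron-sulfur clusters that carry electrons through the complex, as well as accessory subunits. nuo-1, whose product takes the electrons from NADH, had no region, and neither had nuo-3, nuo-6 or gas-1.

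In complex II, succinate dehydrogenase, 2 of 5 genes had a region, against 35.5% of all nuclear protein-coding genes, and none was thresholded. With 1.55% of all nuclear protein-coding genes thresholded, 0 of 5 is no result about this complex. The 2 were mev-1, encoding the cytochrome b560 membrane anchor, with signal 42.3 and rank 3806, and sdha-1, encoding the flavoprotein, with signal 41.0 and rank 4293. At these summits both had a region in replicate 4, at ranks 2437 and 1484, and neither had one in replicate 5. A weaker pooled summit of mev-1, 176 bp past the start at rank 23440, had a region only in replicate 5, at rank 2419. A small nucleolar RNA gene, D2021.6, lay within 500 bp of the sdha-1 summit. No region was found at the iron-sulfur subunit gene sdhb-1, at sdhd-1, or at sdha-2, the second flavoprotein gene.

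In complex III, 3 of 7 genes had a region, against 35.5% of all nuclear protein-coding genes. None was thresholded, which against 1.55% of all nuclear protein-coding genes is no result either. The strongest was at cyc-1, encoding cytochrome c1 (chrI:8022674-8024422, minus strand), where the region at chrI:8024501-8024944 had signal 61.6 and pooled rank 965. It ranked 943 in replicate 4 and 4975 in replicate 5, with the summit 301 bp upstream of the start. Of the core subunit 2 family, ucr-2.3 had signal 33.0 and rank 9179, ucr-2.2 had 30.1 and rank 12218, and ucr-2.1 had no region. At these summits each of the 2 had a region in 1 replicate only, ucr-2.3 in replicate 5 and ucr-2.2 in replicate 4. No region was found at isp-1, which encodes the Rieske iron-sulfur protein, at ucr-1 or at ucr-11. For cyc-2.1, encoding the mobile carrier cytochrome c, the region at chrIV:4748691-4749134 lay in an intron 99 bp past a start site, with signal 52.3 and pooled rank 1699. It ranked 1170 in replicate 4 and 11899 in replicate 5. A thresholded summit stood 1049 bp from a cyc-2.1 start, just beyond the window.

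In complex IV, 6 of 7 structural subunits with cox- names had a region, 4 of them thresholded. The shares over all nuclear protein-coding genes were 35.5% with a region and 1.55% thresholded. The strongest region at any member was that of cox-5A (WBGene00012553, chrIII:12905491-12906619, plus strand), encoding subunit 5A. The region at chrIII:12905090-12905281, 192 bp wide against 444 bp at the other 5 genes, had pooled signal 224, rank 24 and −log10 q of 2.48. It ranked 17 in replicate 4, with signal 172, and 30 in replicate 5, with signal 60.1. The summit lay outside genes, 306 bp upstream of the start, and in no other gene's promoter window. cox-5B (WBGene00000371, chrI:9788725-9790050, plus strand), encoding subunit 5B, had a region at chrI:9788471-9788914 with signal 134, rank 98 and −log10 q of 2.48. It ranked 102 in replicate 4, with signal 97.4, and 116 in replicate 5, with signal 37.3. Its summit, 32 bp upstream of the start, was likewise in no other gene's window. cox-5A and cox-5B were called by every setting tried for the promoter window and the start sites, and with either replicate left out.

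The remaining thresholded subunits were closer to the threshold and ranked lower in replicate 5. cox-6A (WBGene00006519, chrIII:5081724-5082995, plus strand) had a region at chrIII:5080713-5081156 with signal 77.8 and rank 469, which ranked 456 in replicate 4 and 979 in replicate 5. Its summit was 789 bp upstream of the gene. The region, at -1011 to -568 bp, covered the whole small nuclear RNA gene F54D8.7, at -926 to -826 bp on the opposite strand. The start of F54D8.7, at -826 bp, was nearer to the summit than that of cox-6A. When regions near small RNA genes were left out, cox-6A was no longer called. The part of the small RNA gene in this region was not tested. cox-6B (WBGene00022170, chrIII:2699663-2786859, plus strand) had a region at chrIII:2785836-2786279 with signal 77.3 and rank 484, which ranked 620 in replicate 4 and 2902 in replicate 5. The annotated gene is 87197 bp long, and the summit lay 144 bp upstream of its downstream start site at position 2786202, inside an intron of the longer transcript, so the call is lost if only the outermost start is used. Y71H2AM.20, on the opposite strand, started 110 bp away, and nduc-2, encoding complex I subunit C2, shared the same region at 794 bp. These 2 genes and cox-6B cannot be told apart as owners of the region.

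The sequences under the summits of the thresholded genes on chromosome III are shown because these regions carry 4 of the 6 calls. Each runs from 50 bp before to 50 bp after the summit, from the plus strand of the RefSeq genome (WBcel235, ce11), and capitals mark matches to any of 5 hexamers counted further on, on either strand.
cox-5A, chrIII:12905135-12905235: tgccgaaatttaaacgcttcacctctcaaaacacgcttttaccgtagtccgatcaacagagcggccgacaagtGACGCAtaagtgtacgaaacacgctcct
cox-6A, chrIII:5080885-5080985: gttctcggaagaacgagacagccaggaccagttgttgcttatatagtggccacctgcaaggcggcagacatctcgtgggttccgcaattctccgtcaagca
cox-6B, chrIII:2786008-2786108: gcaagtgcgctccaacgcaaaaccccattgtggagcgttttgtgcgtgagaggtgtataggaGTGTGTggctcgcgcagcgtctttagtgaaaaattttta
nduf-2.2, chrIII:6464281-6464381: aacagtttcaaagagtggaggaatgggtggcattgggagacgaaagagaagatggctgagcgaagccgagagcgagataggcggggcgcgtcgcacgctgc

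The remaining complex IV subunits with cox- names were not thresholded. cox-6C had signal 35.2 and rank 7410, cox-4 had 24.9 and rank 19920, and cox-7C had no region. Assembly factors, which build the complex but are not part of it, gave 0 thresholded genes of 8, against 1.55% of all nuclear protein-coding genes. At that background a count of 0 among 8 genes is no result about them. Among them cox-15, which acts in heme synthesis for the oxidase (chrII:11232756-11234952, minus strand), had a region at chrII:11234531-11234974 with signal 49.0 and rank 2159. It ranked 1955 in replicate 4 and 21642 in replicate 5, and its summit lay in a coding exon 199 bp past the start. The copper chaperone gene cox-17 had signal 43.3 and rank 3484 and had a region at its summit only in replicate 5, and cox-10, another heme synthesis gene, had 25.6 and rank 18704. cox-11, cox-14, cox-16, cox-18 and cox-19 had no region.

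In complex V, the ATP synthase, 4 of 5 genes had a region, against 35.5% of all nuclear protein-coding genes. Of the 5, 1 was thresholded, against 1.55%, and a single call says little about the complex. atp-1 (WBGene00010419, chrI:12652277-12654655, plus strand), encoding the alpha subunit of the catalytic head, had a region at chrI:12652071-12652514 with signal 105, rank 200 and −log10 q of 2.12. It ranked 153 in replicate 4, with signal 84.9, and 705 in replicate 5, with signal 22.95. The summit was in the 5′ UTR, 16 bp past the start, and 206 bp upstream of mcrs-1 on the opposite strand, whose window it shared. The beta subunit gene atp-2, whose product pairs with that of atp-1, had a promoter signal of 27.3 at rank 15930 and no region there in replicate 5. atp-3, encoding the stalk protein OSCP, had signal 44.1 and rank 3228, atp-4 had 24.8 and rank 20010, and atp-5 had no region.

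**Figure D2:**
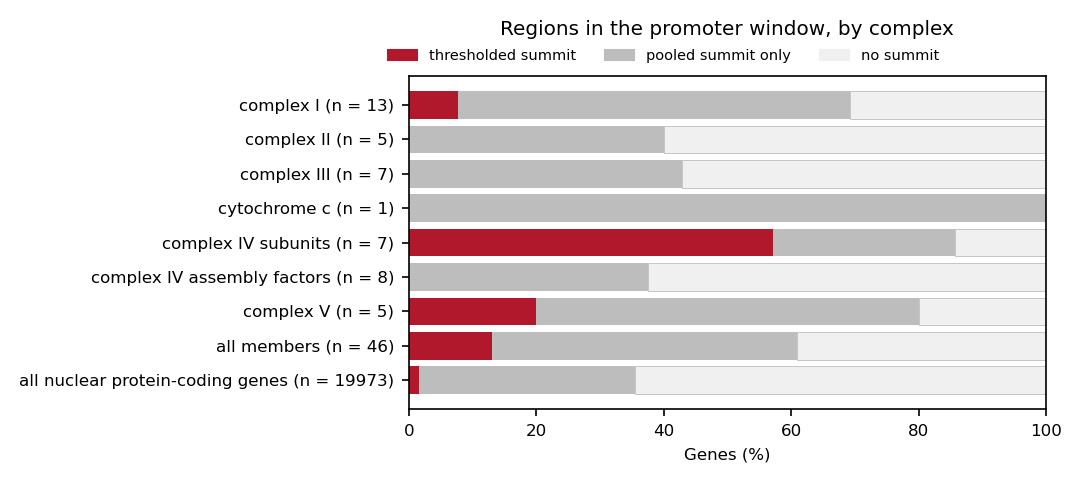
Bars give the percentage of genes in each group with a thresholded summit (red), a pooled summit only (dark grey) or no summit (light grey) in the promoter window, with all 46 members and all 19973 nuclear protein-coding genes below. The red segment reaches 57.1% in complex IV subunits, against 1.55% of all nuclear protein-coding genes. It is absent in complexes II and III, cytochrome c and complex IV assembly factors, groups too small for absence to be a result.

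The 18 genes with no region in the window lie below the weakest of 30000 pooled regions there, which limits what can be said of them: binding was not detectable in these lists. Their nearest pooled summit was 392 to 4241 bp from a start site, with a median of 1210 bp. The thresholded genes were also counted by chromosome. Chromosome III held 4 of the 6, from 12 members, and chromosome I held 2, from 14 members, while the 20 members on the other chromosomes held 0. All genes on chromosome III were thresholded at 2.61% and those on chromosome I at 2.22%, above the 1 to 1.57% of the other chromosomes. At those shares a count of 0 among 20 members is no result about the other chromosomes.

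Among the 534 strongest regions of both replicates were 3 members, cox-5A, cox-5B and nduf-2.2, or 6.52% (interval 1.37 to 17.9%), against 0.786% of all nuclear protein-coding genes. Here a region counted when it covered the pooled summit, wherever its own summit lay. By that count replicate 4 had 5 members among its 534 strongest and replicate 5 had 3. Of the 28 genes with a pooled summit, 17 had a region at it in both replicates (60.7%), against 40.4% of all genes with one, and the Spearman rho of their replicate ranks was 0.81 as a description. 8 of the 28 had none in replicate 5 and 3 had none in replicate 4. Of the 17 in both, 12 ranked stronger in replicate 4 (70.6%), against 53.0% of all genes and 62.8% of all thresholded regions found in both.

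**Figure D3:**
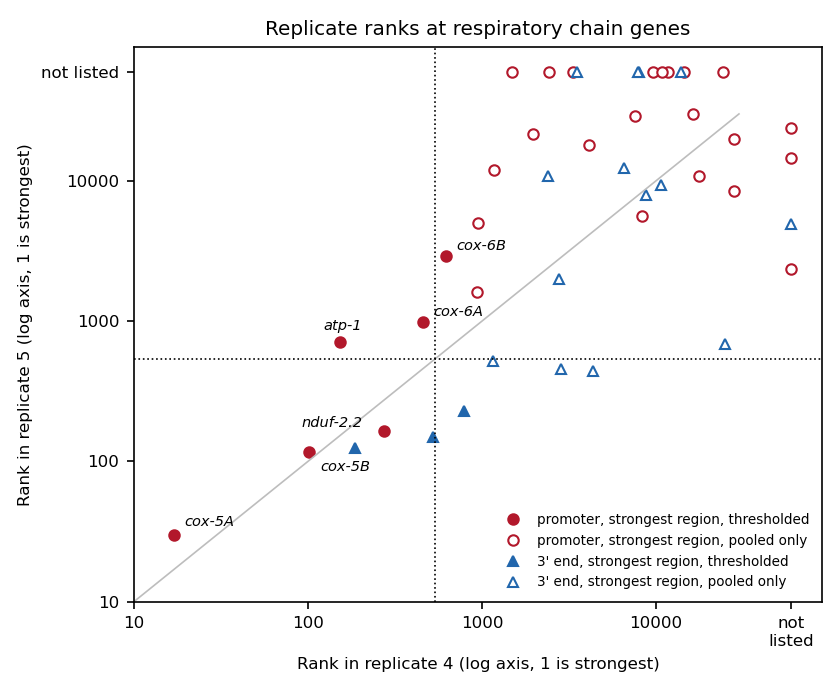
Each point is 1 region at a respiratory chain gene, placed by its rank in replicate 4 and in replicate 5 (log axes, 1 is strongest, regions absent from a list at the margin); circles are promoter regions, triangles regions at 3′ ends, filled if thresholded, and dotted lines mark rank 534. cox-5A, cox-5B and nduf-2.2 lie inside both lines, while cox-6B, at 620 and 2902, lies outside both.

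Summits lay on both sides of start sites. Of the 28 strongest summits, 18 were upstream and 10 downstream, 13 of them within 350 bp upstream, and the median was -94.5 bp, against -270 bp for all genes with a region, where negative is upstream. The 64.3% upstream compares with 76.8% of all genes. The summit fell outside protein-coding genes at 15 members (53.6%), against 46.4% of all genes, in a coding exon at 8, in an intron at 3 and in a UTR at 2. A neighbouring gene's window held the same region at 10 of the 28 members (35.7%), against 21.9% of all genes, and at 3 of the 6 thresholded members (nduf-2.2, cox-6B and atp-1), against 43.4% of all thresholded genes. The gene's own start was the nearest at 22 of the 28 (78.6%), against 83.7% of all genes.

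**Figure D4:**
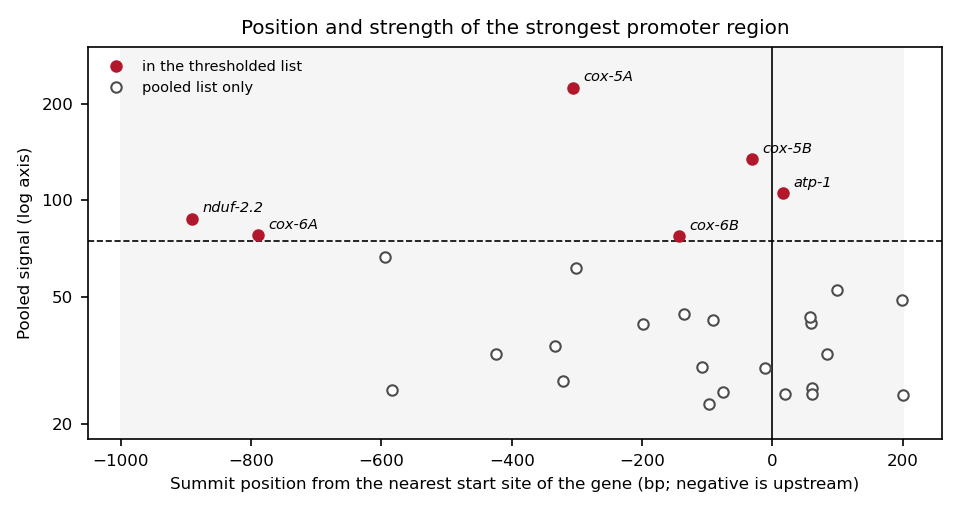
Each point is the strongest promoter region of 1 gene, with the distance of its summit from the start site (bp, negative is upstream) on the x axis and its pooled signal (log axis) on the y axis; the dashed line is the lowest thresholded signal. The 6 thresholded summits are spread from -891 bp at nduf-2.2 to 16 bp at atp-1.

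**Figure D5:**
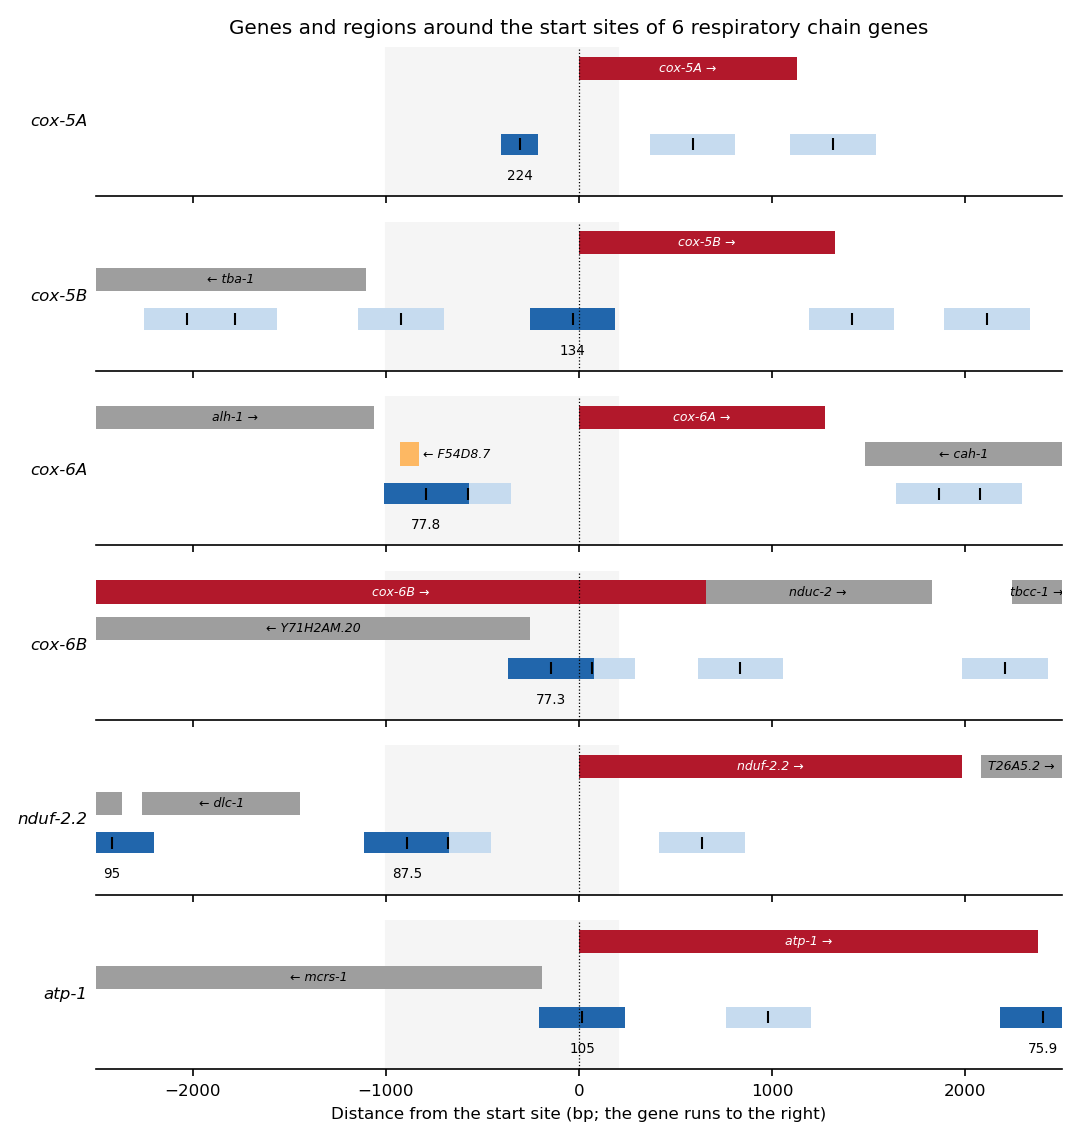
The 6 thresholded genes (red) with neighbouring protein-coding genes (grey), small RNA genes (orange) and regions (dark blue thresholded, light blue pooled only, ticks at summits, numbers giving thresholded signals), drawn to scale by distance from the start site, with the promoter window shaded. cox-5A and cox-5B have summits in no neighbour's window, whereas those of cox-6B, nduf-2.2 and atp-1 each share the window of a neighbour on the opposite strand. Other non-coding RNA genes, among them T26A5.10 at the nduf-2.2 summit, are not drawn.

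Hexamers known from earlier results of these data were counted in these windows of 50 bp to each side of the summit, on either strand. The motifs were AGAGAC, the motif GACGCA, its overlapping neighbour ACGCAG, the purine repeat GAGAGA and the alternating repeat ACACAC. Any of the 5 was found at 6 of the 28 members (21.4%), against 48.7% of the 534 thresholded regions and 19.5% of all pooled regions. In pooled regions in promoter windows the share was 22.5%, the closer comparison, since 22 of the 28 members were not thresholded. Among the 6 thresholded members, 2 held one: GACGCA at cox-5A, and ACACAC at cox-6B, read as GTGTGT on the strand shown. AGAGAC was in 0 of the 28 windows, against 18.7% of thresholded and 5.31% of pooled regions. GACGCA was in 2 windows (7.14%), against 12.4% of thresholded and 3.44% of pooled regions. A match describes these letters alone. Median GC content was 53.0% in the windows of the 6 thresholded members, against 48.5% in all thresholded and 41.6% in all pooled regions.

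The 3′ ends of these genes, examined after their values were seen, also held regions. A pooled summit lay within 300 bp of the annotated end at 17 of 46 members (37.0%), against 20.6% of all genes, and 3 of these summits were thresholded (6.52%), against 0.661%. The strongest was at atp-2, with signal 117 and rank 138, 186 in replicate 4 and 125 in replicate 5, although its promoter region ranked only 15930. The atp-2 summit was 182 bp past the gene's end and inside the promoter window of prmt-5. The 3′ summit of nuo-4 had signal 91.9 and rank 290, and that of atp-1 had 75.9 and rank 510. Those of cox-5A and cox-5B, with signals 71.5 and 60.9, ranked 1160 and 2835 in replicate 4 and 516 and 454 in replicate 5.

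Where found in both replicates, the strongest 3′ regions showed the opposite replicate order to the promoters. Of 12 found in both replicates, 10 ranked stronger in replicate 5 (83.3%), against 51.7% of all genes' 3′ regions. The absences ran the other way: of the 17 genes, 4 had no such region in replicate 5 and 1 had none in replicate 4. Over all genes, 1891 of 4118 had none in replicate 5 and 795 had none in replicate 4. Of the 17, 9 also lay in a promoter window of some gene, and the 8 that lay in none all ranked stronger in replicate 5, against 51.4% of all such regions found in both replicates. The difference between promoters and 3′ ends in replicate order was not tested.

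Other genes of oxidative phosphorylation and the citric acid cycle were listed by name, also with earlier results of these data known. Of these 42 genes, 25 had a pooled summit, against 35.5% of all nuclear protein-coding genes, and 0 were thresholded, against 1.55%. At that background a count of 0 among 42 genes is no result about them. They comprise ATP synthase subunits under other names, assembly factors, ubiquinone synthesis, ADP/ATP carriers and citric acid cycle enzymes. In the citric acid cycle, 11 of 15 genes had a pooled summit, among them cts-1, the citrate synthase gene, at rank 1473 with signal 54.3 and aco-2, the mitochondrial aconitase gene, at rank 1573 with 53.3. The strongest of the 42 was ant-1.1, an ADP/ATP carrier gene, with signal 73.1 and rank 570, just under the lowest thresholded signal, and its region was also in the windows of T27E9.2 and abcf-2. These genes were picked out for their ranks after the values were seen.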

How the data were processed

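ChIP-seq regions of 2 biological replicates (4 and 5) of whole young adults were taken from 4 deposited lists: 1 per replicate, 1 pooled and 1 thresholded. Per the file headers, the per-replicate and pooled lists hold peaks together with background and were made from alignments with a control, and the thresholded list was made from them by the irreproducible discovery rate. For the caller, aligner, versions and threshold, no name is given in the sources used here. The deposited signal is the caller's enrichment score per region and the deposited −log10 q its significance, both the authors' values. The deposited summit offset gave each summit. Coordinates are 1-based on ce11, per the labels. Gene starts came from Ensembl release 115, and sequences from the RefSeq WBcel235 genome.

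A summit between 1000 bp upstream and 200 bp downstream of a start was assigned to that gene, with the strongest region kept, in Python 3.11.15 with pandas 2.3.3, numpy 2.4.6 and scipy 1.17.1. The assignment was tested on 200 simulated regions, and 19973 of 19973 genes were given their simulated answer, which for most genes was no region. The simulated answers used the same window bounds, so this checks the counting and not the choice of window. Replicates came from separate biosample records, and 128 regions shared coordinates between the replicate lists, 0 with the same signal. Intervals are exact binomial at 95%, over genes and counting error only. Full values are given for members with a thresholded summit or a region in the strongest 3000, the rest are named with ranges, and members with no region are named. The members, the lists and the hexamers were chosen with earlier results of these data known. Subunits listed by RefSeq product and the 3′ ends were added after values were seen. No test over samples was made, because there is 1 group.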

Additional observations from a re-analysis of the deposited data

How the results depend on the processing

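The count of 6 thresholded genes was 3 when the 267 strongest thresholded regions alone were used (cox-5B, atp-1 and cox-5A), and leaving out each replicate in turn gave 2 to 5. It was 4 with a window of 500 bp upstream, 8 with 2000 bp, 5 with the outermost start only, 7 with any overlap, 4 with the nearest start only and 5 without regions near small RNA genes. cox-5A and cox-5B were kept in all of these. The count of 42 other pathway genes called was 1 with 2000 bp upstream (mai-2) and 0 to 1 when each replicate was left out. The count of members among the strongest of both replicates was 5 at the strongest 1000, 7 at the strongest 3000 and 3 to 5 with each replicate left out. It was 2 with summits within 100 bp (cox-5B and cox-5A) and 2 with a reciprocal overlap of 50% (cox-5B and nduf-2.2), where cox-5A was lost. The hexamer share in whole regions was higher, at 57.1%, since longer sequence holds more matches. All thresholded regions gave 78.1%, an unlike set because 22 of the 28 member regions were not thresholded. No share over pooled regions was counted for whole regions. Members with a pooled summit numbered 22 to 35 across settings, and the share of all genes moved with the window, 25.6% with 500 bp upstream and 50.9% with 2000 bp. For thresholded summits that share was 0.791% with the 267 strongest regions and 2.15% with 2000 bp. The counts with other complex I names (7 of 65 genes), without assembly factors (6) and with every transcript start (6) were added after seeing the data. Of the alternative values, 68 stayed within the limits set and 22 moved. These totals also hold the call of each of the 6 genes under each setting, so they repeat the same settings. For counts the limit was a ratio to the main count, under which 4 genes against 6 was taken as the same. No paired analysis was possible because there is 1 group. With no read counts and no untagged strain analysed here, weak and absent regions cannot be told apart.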

Other observations

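Respiratory chain subunits that carry other names, found by their RefSeq product after values were seen, numbered 49, of which 19 had a pooled promoter summit and 2 were thresholded (4.08%), against 35.5% and 1.55% of all nuclear protein-coding genes. One of the 2, nduc-2, shares the cox-6B region, which is thus counted again here. The other, F29B9.11, a gene annotated as polypeptide VIIc of cytochrome c oxidase, had pooled signal 82.5 and rank 380, with rank 742 in replicate 4 and 234 in replicate 5. Its region was also in the window of jmjd-1.2, a histone demethylase gene. Complex IV gave 1 thresholded gene of 6 in this list, and complexes III and V gave 0 of 5 and 0 of 13. At the background of 1.55% these counts of 0 are no result about those complexes. The share over these 49 genes lies below that over the 46 named ones.

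T27E9.2, annotated as subunit 6 of the cytochrome b-c1 complex (complex III), shared its region, pooled rank 570 with signal 73.1, with the carrier gene ant-1.1. Its summit ranked 868 in replicate 4 and 958 in replicate 5.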
